A study of Homo sapiens with 18 samples.

Results

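The genes described here are the well-expressed ZNF zinc-finger genes of SJSA-1 cells, a human osteosarcoma line, together with ZFP37. They were selected on their level in untreated cells: all gene symbols made of ZNF, a number and at most 1 letter were ranked by mean CPM (counts scaled to a common library total, the gene's share of all counts in a library) over the 3 DMSO libraries, and the first 200 were kept. ZFP37 was added by name. The resulting 201 members stand among 529 symbols of this form and 23368 gene rows in all. The questions were whether Nutlin lowers these transcripts as a class, and whether the CDK4 inhibitor palbociclib changes that.

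RNA was sequenced from 6 groups of 3 libraries each. The DMSO group received solvent alone, and the Nutlin group received 20 µM Nutlin, an antagonist that keeps MDM2 from binding p53, for 6 h. PD0332991 (palbociclib) was given at 10 µM for 24 h (PD24) or 30 h (PD30), and the groups N+PD24 and N+PD30 combined each schedule with Nutlin for 6 h. In the study's scheme palbociclib was withdrawn in the 24 h schedule before Nutlin was added, and stayed on throughout in the 30 h schedule. All 18 libraries come from a single cell line. The study calls the replicates biological triplicates, and the labels do not say whether they are separate cultures. The p-values therefore measure the spread between these libraries. In bulk RNA, fewer cells that express a gene and less RNA per cell cannot be told apart.

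Zinc-finger proteins of the C2H2 kind carry tandem fingers, each folded around a zinc ion by paired cysteines and histidines, and successive fingers read successive bases of DNA. Many of them also hold a KRAB domain, which recruits TRIM28 and through it the histone methyltransferase SETDB1, HP1 proteins and histone deacetylases, so that bound DNA, often a retroelement, is packed into silent chromatin. Many KRAB zinc-finger genes lie in clusters on chromosome 19, where they arose by duplication. Others in the family bind RNA, ribosomes or spindle proteins.

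The linker that joins one finger to the next is shown because it recurs within and between many of these genes. A search for the Krüppel-type linker, a 14-base pattern with its wobble bases left free, on the coding strand of the longest coding sequence found it in 126 of 198 members with a coding sequence, and 712 times in all. Among ZNF symbols below the limit, 261 of 310 held it. The commonest of its 64 spellings occurred 186 times in 55 members, and ZNF845 held the most linkers, 17.
finger linker, commonest spelling: actggagagaaacc

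Of the 201 members, 200 were placed on GRCh37, 189 by symbol and 11 by an older name, and 62 of them lie on chromosome 19. The median number of fingers found by their cysteine and histidine spacing was 9.5, with up to 36 in ZNF142 and none in 5 members. Conserved letters of a KRAB box were found in 83 members and not in 115, though the pattern misses variant boxes. Reads were 50 bases long, so shared stretches of 50 bases show where counting could have been uncertain. A median of 0.57% of a member's 50-base stretches recurred in another gene, and 12 members exceeded 20%, among them ZNF23 at 43.0% and ZNF410 at 34.1%. Exons of 63 members overlap exons on the opposite strand, and those of 41 overlap another gene on the same strand. Reads were counted with a reverse-strand setting, but the TruSeq RNA kit named in the labels is not stated to keep strand, so reads of such partners may not have been told apart.

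Total counts per library ranged from 12704845 (N+PD30 replicate 1) to 40231041. The p53 targets CDKN1A and MDM2 rose with Nutlin from means of 184 and 2589 CPM to 3984 and 22914 CPM. Mesenchymal markers matched the label, with COL1A1, SPARC and VIM at 1429.6 CPM or more on average in DMSO and COL1A2 at 418 CPM. Of the osteoblast genes, RUNX2 and ALPL were at means of 30.2 and 57.5 CPM in DMSO, whereas SP7 and BGLAP were near 0 in every group. EPCAM, CDH1, KRT19, PTPRC, CD3E and HBB were at or under 1.21 CPM in every group mean, and the epithelial keratin KRT18 stood at 107 to 211 CPM. KRT8, its partner, stood at 10.97 to 31.1 CPM in group means and was higher in Nutlin than in DMSO by 1.35 (log2) and in PD30 by 0.87, and its part in the results was not tested. Between 17871 and 20447 genes had a count, with 19464 to 19626 in Nutlin and 18047 to 18242 in DMSO, and the part of this difference in the results was not tested.

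Because the DMSO values chose the members, their level there is a description. Mean DMSO levels of the 200 ranked genes ran from 9.96 to 261.7 CPM with a median near 19.5 CPM. The last members inside the limit were ZNF26 at 10.1 CPM, ZNF862 at 9.97 CPM and ZNF329 at 9.96 CPM, and the first outside were ZNF408 at 9.89 CPM, ZNF319 at 9.89 CPM and ZNF692 at 9.84 CPM. ZFP37, at 3.39 CPM, would have ranked 352. By CPM the order opened with ZNF207, a spindle assembly factor that binds BUB3, and ZNF638, an RNA-binding nuclear protein, followed by ZNF664, ZNF146, ZNF532, ZNF24, ZNF655, ZNF609, ZNF217 and ZNF770. That order mixes level with transcript length, since long transcripts give more reads. Per kb of exon ZNF146, a protein built almost wholly of fingers, led with 35.5 ± 2.57 CPM per kb (SD, n = 3), close to ZNF22 with 35.1 ± 3.13 CPM per kb, a difference within their spread. ZNF622, a factor of large ribosomal subunit maturation, came next with 28.97 ± 1.996 CPM per kb, and the median over 200 members was 3.32 CPM per kb.

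The members' summed level was 5898 to 6485 CPM in the DMSO libraries and 3924 to 4278 CPM in the Nutlin libraries. These ranges do not overlap, but the members were chosen on these DMSO libraries, so this gap is a description. The ZNF symbols below the limit summed to 1147 to 1203 CPM in DMSO and 816 to 870 CPM in Nutlin. The members' sums were 5286 to 6168 CPM in PD24 and 3308 to 3859 CPM in N+PD24, again apart from each other. In PD30 they were 5219 to 6165 CPM and in N+PD30 4224 to 5531 CPM, and here the ranges overlap. Replicate 3 had the highest sum in each group, and N+PD30 replicate 1, the shallowest library, the lowest sum of its group.

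**Figure D1:**
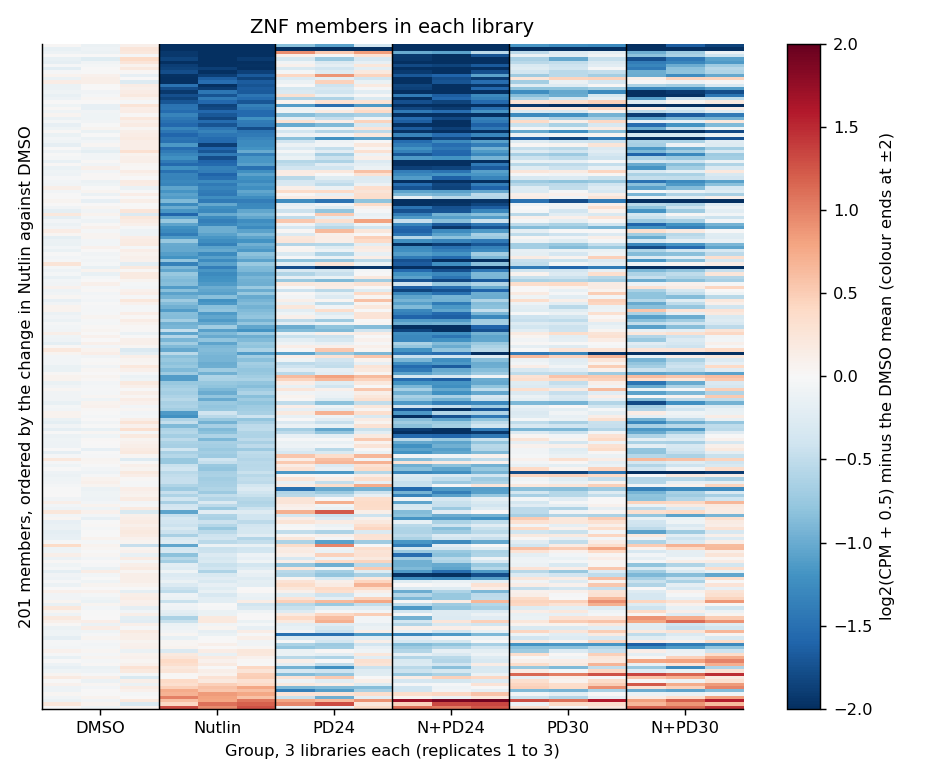
Each row is 1 of the 201 members and each column 1 of the 18 libraries; colour gives log2(CPM + 0.5) minus the member's DMSO mean, with blue for lower and red for higher. Nutlin and N+PD24 libraries are blue over most rows, N+PD30 libraries less so.

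In Nutlin against DMSO, 147 of 201 members were lower and 10 higher at a threshold of 0.05 on the Benjamini-Hochberg adjusted p over all 15766 genes tested (quasi-likelihood test of edgeR), beside 28.0% of all genes lower and 26.6% higher. The median log2 fold change of the members was -0.68, and that of all genes tested 0.03. On CPM by library totals, another scale than the TMM-scaled fold change, the median member stood at 57.1% of DMSO. A fall beyond 2-fold was called for 59 members, against 8.42% of all genes. The DMSO libraries that chose the members stand on one side of this comparison, so nothing is read from these shares alone. When the 200 were instead taken by their mean over PD24 and PD30 libraries, which shares 181 genes with the first choice, 137 of 201 were lower, 13 were higher, and the median was -0.61. Scaling by library totals instead of TMM moved the median of all genes from 0.03 to -0.10 and that of the members to -0.81. Upper-quartile scaling moved them to 0.14 and -0.58.

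The largest falls, given as log2 fold changes with standard errors, were, apart from ZFP37, those of ZNF367 (-3.22 ± 0.18), ZNF697 (-2.14 ± 0.17), ZNF134 (-2.13 ± 0.15), ZNF700 (-2.10 ± 0.22), ZNF639 (-2.05 ± 0.13), ZNF260 (-1.99 ± 0.14) and ZNF280B (-1.96 ± 0.17). ZFP37, a KRAB zinc-finger gene at chr9:115800657-115819039 on the minus strand, was at 3.42, 3.09 and 3.65 CPM in DMSO and at 0.197, 0.200 and 0.147 CPM in Nutlin, an estimate of -4.06 ± 0.26. It was added by name and passes the filter on low counts through its DMSO level, so this is a description with no test. The estimate of ZFP37 in Nutlin against DMSO was -4.09 without the filter. ZNF639, which lies at chr3:179040819-179056371 on the plus strand, was at 37.03, 40.1 and 49.6 CPM in DMSO and at 9.08, 9.53 and 9.32 CPM in Nutlin. ZNF134 was at 17.1, 17.2 and 16.8 CPM in DMSO and at 4.13, 3.06 and 3.54 CPM in Nutlin. For each of these genes every Nutlin library lay below every DMSO library. So it was for 163 of the 201 members and 38.5% of all genes tested, and the genes named here were picked for their falls.

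Few members went the other way. The largest rises were those of ZNF337 (1.32 ± 0.12), ZNF469 (1.06 ± 0.20), ZNF23 (0.96 ± 0.14), ZNF654 (0.95 ± 0.13), ZNF407 (0.91 ± 0.10) and ZNF323 (0.77 ± 0.11). ZNF337, a KRAB gene at chr20:25653831-25677489 on the minus strand, was at 24.97, 23.2 and 26.1 CPM in DMSO and at 62.1, 47.8 and 60.2 CPM in Nutlin, with no overlap. Its exons overlap those of ZNF337-AS1 on the opposite strand. All Nutlin libraries lay above all DMSO libraries for 9 members and 23.3% of all genes tested. ZNF469, whose loss causes brittle cornea syndrome, spread widely, with 52.4, 47.1 and 36.0 CPM in DMSO and 59.9, 96.1 and 103 CPM in Nutlin. ZNF23 shares 43.0% of its 50-base stretches with other genes, so its counts are uncertain.

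Neither group of the next comparison took part in choosing the 200 ranked members. In cells treated with palbociclib for 24 h and then with Nutlin, 144 of 201 members were lower and 6 higher than in PD24 (limma with an intensity trend on log2(CPM + 0.5), adjusted over 15517 genes), beside 20.1% of all genes lower and 17.0% higher. The members' median was -0.82 and that of all genes 0.03. On CPM by library totals, a scale without the TMM factors or the pseudocount, the median member stood at 50.5% of PD24. A fall beyond 2-fold was called for 74 members, against 5.64% of all genes. On this scale the pseudocount shrinks the change of low genes. With the replicate number as a block, 159 members were lower and 10 higher.

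ZNF304, a KRAB gene on chromosome 19 (log2 fold change -2.03 ± 0.21, adjusted p = 7.58e-05), had the largest fall on the log2(CPM + 0.5) scale, and was at 17.1, 18.7 and 25.7 CPM in PD24 and at 2.95, 4.63 and 5.13 CPM in N+PD24. ZNF614 (-1.98 ± 0.26, adjusted p = 0.000245), ZNF200 (-1.97 ± 0.16, adjusted p = 1.82e-05) and ZNF710 (-1.91 ± 0.20, adjusted p = 7.67e-05) followed. By edgeR on the recovered reads the largest, ZFP37 apart, were ZNF184 (-2.27 ± 0.21), ZNF200 (-2.24 ± 0.18), ZNF107 (-2.23 ± 0.24) and ZNF304 (-2.13 ± 0.23). ZFP37, added by name and resting on few counts with Nutlin, had an estimate of -2.96 ± 0.36, given as a description. ZNF200 was at 8.89, 8.39 and 9.42 CPM in PD24 and at 1.52, 1.65 and 1.95 CPM in N+PD24, without overlap. All N+PD24 libraries lay below all PD24 libraries for 163 members and 33.0% of all genes tested. The rises were led by ZNF23 (1.21 ± 0.12), ZNF337 (1.20 ± 0.15), ZNF323 (0.96 ± 0.20) and ZNF251 (0.84 ± 0.15). ZNF337 was at 23.1, 23.2 and 32.5 CPM in PD24 and at 53.7, 51.1 and 59.3 CPM in N+PD24, close to its level with Nutlin alone.

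With palbociclib kept on for the whole time, far fewer members passed the test. In N+PD30 against PD30, 17 of 201 members were lower and 11 higher (edgeR, 15077 genes tested). Of all genes, 5.64% were lower and 8.84% higher. In this fit, which leaves the replicate number out, the members' shares lay near the background. A fall beyond 2-fold was called for 3 members, against 0.497% of all genes. The median was nevertheless below that of all genes, -0.21 against -0.01, and 151 members had a negative estimate, beside 50.6% of all genes. On CPM by library totals the median member stood at 81.1% of PD30. The count rested on single libraries: without N+PD30 replicate 3, 46 members were lower, and without any other single PD30 or N+PD30 library the count was 2 to 7. Those 3 N+PD30 libraries differed among themselves, with member medians of -0.48, -0.36 and -0.07 against the PD30 mean for replicates 1 to 3. The deviations of same-numbered libraries of these groups from their group means correlated with r of 0.19, 0.30 and 0.63. The highest r between differently numbered libraries was 0.40, so whether the numbers pair the libraries is not settled. With the replicate number as a block 59 members were lower and 18 higher. DESeq2 called 31 lower and 13 higher, and library totals gave 30 and 9. Lower members made up 60.7% of the calls, 76.6% with the block and 76.9% with library totals, and over all genes 38.9%, 48.6% and 56.2%. The 11 rises dropped to 2 without PD30 replicate 1, 5 without PD30 replicate 2, 7 without PD30 replicate 3 and 4 without N+PD30 replicate 2.

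The members that fell most in this comparison were ZNF107 (log2 fold change -1.48 ± 0.27, adjusted p = 0.0113), ZNF92 (-1.20 ± 0.23, adjusted p = 0.0136), ZNF267 (-1.14 ± 0.25, adjusted p = 0.0219) and ZNF711 (-0.87 ± 0.20, adjusted p = 0.0278). ZNF107, a KRAB gene at chr7:64126477-64171955 on the plus strand, was at 2.62, 1.67 and 2.61 CPM in PD30 and at 0.787, 0.672 and 0.872 CPM in N+PD30. ZNF711, an X-linked gene whose product works with the histone demethylase PHF8, was at 9.09, 7.42 and 9.79 CPM in PD30 and at 4.41, 3.46 and 5.76 CPM in N+PD30. All 4 lost the call when some single library was left out. Among the rises were ZNF337 (1.20 ± 0.12), ZNF654 (0.96 ± 0.18), ZNF561 (0.83 ± 0.10) and ZNF746 (0.74 ± 0.14), the last a repressor known as PARIS and a target of the ubiquitin ligase parkin. ZNF561 was at 25.4, 26.1 and 27.3 CPM in PD30 and at 41.4, 42.0 and 47.8 CPM in N+PD30, with no overlap, whereas it was at 25.9, 23.5 and 29.7 CPM in PD24 and at 19.2, 15.7 and 18.99 CPM in N+PD24. The estimate of ZNF561 against PD24 was -0.40 ± 0.15 (adjusted p = 0.0542). All N+PD30 libraries lay above all PD30 libraries for 15 members and 14.2% of all genes tested.

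**Figure D2:**
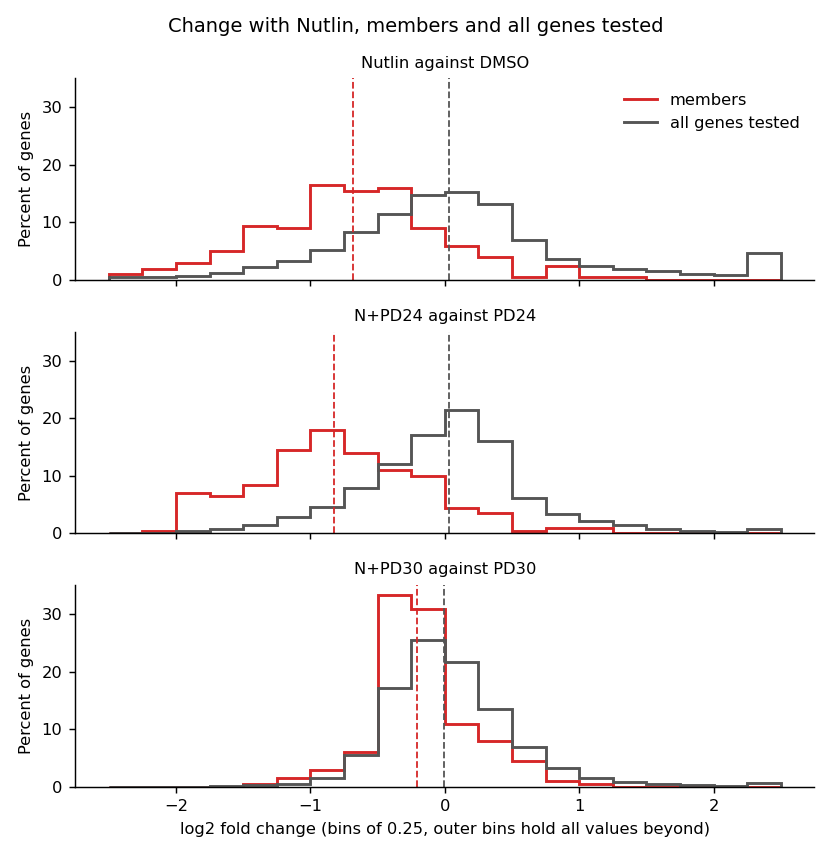
Histograms of log2 fold changes in the 3 comparisons of Nutlin with its own control, for members (red) and all genes tested (grey), as percent of genes per bin of 0.25 with values beyond the axis in the outermost bins, with dashed lines at the medians. The members' median lies at -0.68, -0.82 and -0.21, and that of all genes at 0.03, 0.03 and -0.01.

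These 3 comparisons share no library, so the members' changes can be set beside each other. Of the 147 members lower in Nutlin, 129 were also lower in N+PD24 (87.8% of the first list and 89.6% of the second), and none was called in opposite directions. Over the 15197 genes tested in both, 62.3% of the falls in Nutlin and 87.6% of those in N+PD24 were shared. Calls in opposite directions were made for 12 of these genes. Across the 201 members the changes correlated with Pearson's r of 0.79 and Spearman's rho of 0.81, and those of all genes with 0.82 and 0.86, a description over genes of the same cells and not over independent samples. For N+PD30 the 17 falls were all among those 147 (11.6% of them), r was 0.55 and rho 0.50, and 3 members were called in opposite directions. Over the 14841 genes tested in both, 16.6% of the falls in Nutlin and 84.9% of those in N+PD30 were shared. Their r was 0.63 and rho 0.59, and 45 of these genes had calls in opposite directions. The change was less negative in N+PD30 than in Nutlin for 172 of 201 members, and higher in N+PD30 for 53.5% of all genes. Among genes lower in Nutlin it was less negative for 144 of 147 members and for 92.1% of all genes.

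**Figure D3:**
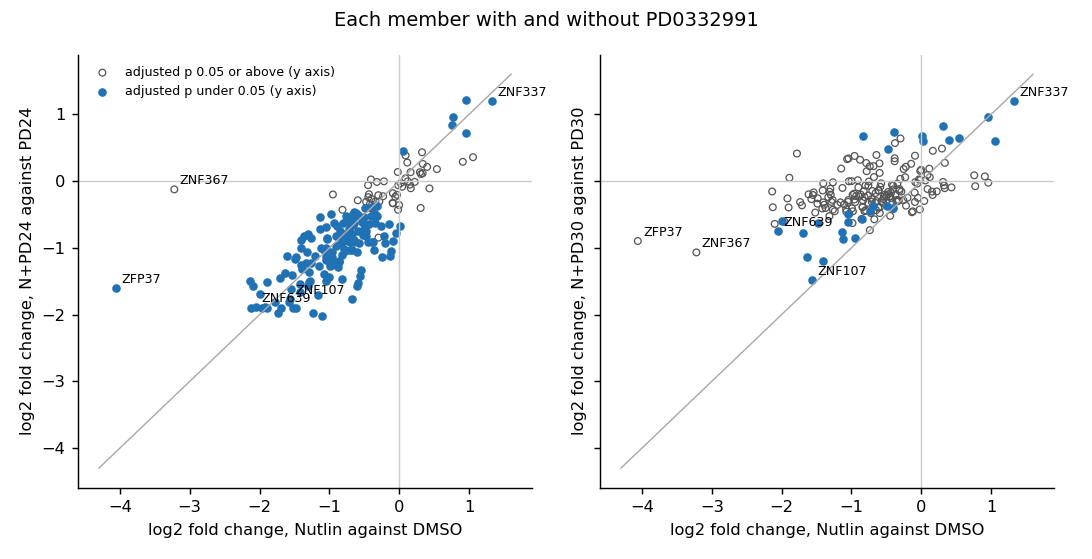
Each point is a member, with its log2 fold change in Nutlin against DMSO on the x axis and in N+PD24 against PD24 (left) or N+PD30 against PD30 (right) on the y axis; filled points passed the test of the y axis, and the grey diagonal marks equal changes. Left, points follow the diagonal except ZFP37 and ZNF367, and right, most lie above it, near 0.

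Of the members, 15 passed as lower in all 3 comparisons, and 2, ZNF337 and ZNF654, passed as higher in all, beside 3.60% of all genes lower and 2.96% higher. These counts rest on the N+PD30 calls, whose 17 falls became 2 to 46 without single libraries. By mean log2 fold change the largest were ZNF107 (-1.61), ZNF639 (-1.56), ZNF551 (-1.46), ZNF260 (-1.43) and ZNF92 (-1.43). ZNF639 was at 28.7, 29.5 and 34.2 CPM in PD30 and at 15.8, 16.7 and 18.8 CPM in N+PD30, a clear gap, yet its fall of 0.75 on the log2 scale there was smaller than the 2.05 without palbociclib. The estimates for ZNF107 were -1.56 ± 0.19 in Nutlin and -1.48 ± 0.27 in N+PD30 by edgeR. In N+PD24 its estimate was -1.77 ± 0.18 by limma, where the pseudocount shrinks it, and -2.23 ± 0.24 by edgeR on the recovered reads.

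**Figure D4:**
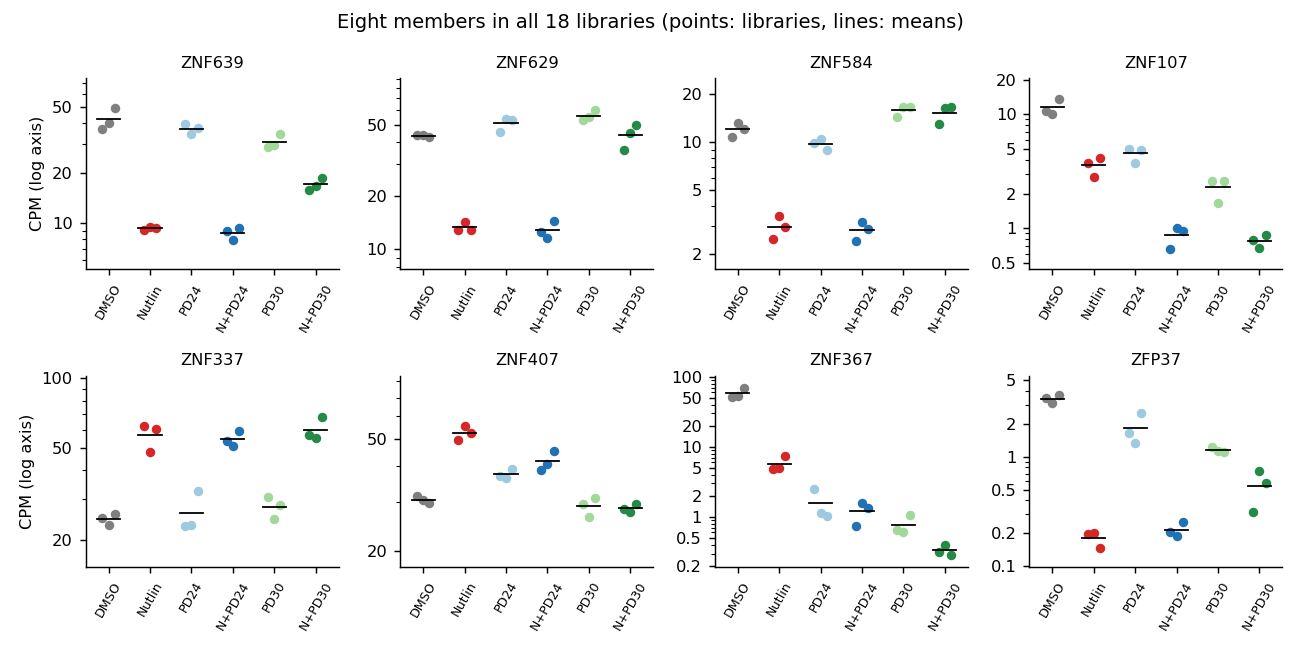
CPM on a log axis for 8 members in the 18 libraries; points are libraries and lines group means. ZNF639, ZNF629 and ZNF584 are low in Nutlin and N+PD24 but higher in N+PD30, ZNF337 is high wherever Nutlin was given, and ZNF367 is lowest in the palbociclib groups.

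The direct comparison of Nutlin-treated cells with and without palbociclib also used no DMSO library. In N+PD30 against Nutlin, 87 of the 200 members tested were higher and 17 lower (edgeR), beside 24.3% of all genes higher and 24.7% lower, with a median of 0.33 against 0.00 for all genes. ZFP37 did not pass the filter on low counts here and was at 0.315, 0.739 and 0.581 CPM in N+PD30. ZNF584, a KRAB gene at chr19:58912871-58943103, was furthest up (log2 fold change 2.33 ± 0.19, adjusted p = 4.88e-06). It was at 2.491, 3.46 and 2.95 CPM in Nutlin and at 13.0, 16.5 and 16.6 CPM in N+PD30, which overlaps its PD30 values of 14.3, 16.5 and 16.7 CPM. ZNF71 (1.80 ± 0.20), ZNF629 (1.67 ± 0.14) and ZNF133 (1.65 ± 0.19) followed. ZNF629 was at 12.8, 14.2 and 12.9 CPM in Nutlin and at 36.1, 45.1 and 49.9 CPM in N+PD30.

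The falls of the same comparison were ZNF367 (-4.07 ± 0.30), ZNF107 (-2.25 ± 0.26), ZNF300 (-1.87 ± 0.20) and ZNF323 (-1.70 ± 0.14). All of these 4 were also lower in PD30 than in DMSO. ZNF323 was at 28.9, 24.98 and 26.02 CPM in Nutlin and at 8.26, 7.96 and 9.05 CPM in N+PD30.

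In N+PD24 against Nutlin the balance was the other way. Here 58 of 200 members were lower and 15 higher (limma), beside 17.3% of all genes lower and 17.1% higher, with a median of -0.15 against 0.01. ZNF367 (-1.81 ± 0.23), ZNF331 (-1.61 ± 0.14), ZNF107 (-1.52 ± 0.18) and ZNF510 (-1.33 ± 0.16) fell most. ZNF331, an imprinted KRAB gene on chromosome 19, was at 12.9, 12.7 and 13.97 CPM in Nutlin and at 3.69, 3.41 and 4.26 CPM in N+PD24. The rises were led by ZNF697 (1.25 ± 0.17), ZNF23 (1.09 ± 0.13), ZNF259 (0.84 ± 0.13), also named ZPR1 and a chaperone of the elongation factor EEF1A, and ZNF226 (0.83 ± 0.16). The number of rises was 6 to 11 when single libraries were left out.

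Palbociclib alone was compared with DMSO in each schedule. In PD30 against DMSO, 61 were lower and 21 higher, beside 25.4% of all genes lower and 22.9% higher, with a median of -0.13. In PD24 against DMSO, 43 were lower and 19 higher, beside 20.8% and 17.5%, with a median of -0.02, whose sign turned with upper-quartile scaling. Both comparisons use the DMSO libraries on which the members were selected, so their shares are descriptions. With upper-quartile scaling, 62.4% rather than 74.4% of the members called in PD30 were lower, and 58.7% rather than 69.4% of those called in PD24. Over all genes the same shares went from 52.5% to 46.1% and from 54.4% to 47.3%. The rises in PD30 fell to 13 without PD30 replicate 3, and those in PD24 to 8 to 11 without any 1 DMSO library. ZNF107, ZNF300 and ZNF714 fell by 2.34, 1.80 and 1.74 on the log2 scale in PD30, and ZNF704, ZNF75D and ZNF107 by 1.98, 1.44 and 1.32 in PD24. Rises in PD30 were led by ZNF23 (1.33 ± 0.14), ZNF862 (1.18 ± 0.11), ZNF252 (0.62 ± 0.10) and ZNF516 (0.61 ± 0.14), and in PD24 by ZNF469 (0.91 ± 0.27), ZNF697 (0.81 ± 0.15), ZNF23 (0.80 ± 0.12) and ZNF622 (0.72 ± 0.11). ZNF862 went opposite ways in the 2 schedules, at 22.8, 20.8 and 24.9 CPM in PD30 and at 5.23, 5.65 and 8.33 CPM in PD24, with DMSO between them at 10.4, 9.74 and 9.73 CPM. ZNF251 had the same pattern, at 16.6, 15.5 and 22.8 CPM in PD30, 6.11, 6.28 and 6.36 CPM in PD24 and 10.97, 11.4 and 13.4 CPM in DMSO.

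ZNF367 fell furthest of all members with palbociclib in both schedules. It is a described target of E2F factors, which RB holds in check until CDK4 and CDK6 phosphorylate it. It was at 52.2, 53.7 and 68.1 CPM in DMSO and at 4.82, 4.96 and 7.41 CPM in Nutlin. With palbociclib alone it was at 2.51, 1.14 and 1.02 CPM in PD24 and at 0.654, 0.612 and 1.05 CPM in PD30, falls of 5.21 and 6.23 on the log2 scale. Adding Nutlin gave 0.738, 1.57 and 1.34 CPM in N+PD24 and 0.315, 0.403 and 0.290 CPM in N+PD30, and neither differed from its palbociclib control at an adjusted p under 0.05 (0.753 by limma and 0.0799 by edgeR). The gene lies at chr9:99148223-99180652 on the minus strand of GRCh37, and its promoter is shown because it holds E2F-type letters. The 250 bases before its start (RefSeq, GRCh38.p14, chr9:96418371-96418620, minus strand) contain TTTNNCGC, read on either strand, at 2 places, in capitals, which begin 35 and 21 bases before the start and do not overlap.
ZNF367 promoter: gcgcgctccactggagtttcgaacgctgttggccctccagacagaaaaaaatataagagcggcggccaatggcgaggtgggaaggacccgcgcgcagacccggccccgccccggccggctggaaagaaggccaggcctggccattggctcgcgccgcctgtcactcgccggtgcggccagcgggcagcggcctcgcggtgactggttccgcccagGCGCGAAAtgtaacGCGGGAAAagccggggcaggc
The same letters were found in 5.92% of 35116 promoter windows of this length. Of the 168 members with a window, 23 (13.7%) held them in at least 1 window. The first share counts windows and the second genes, so no difference is read from them. A match is only a match of letters.

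Whether the Nutlin effect itself differed with palbociclib was asked by the interaction of both treatments. For the 30 h schedule, 83 of 201 members had a higher (less negative or more positive) Nutlin effect and 3 a lower one (edgeR), beside 12.8% of all genes higher and 7.03% lower, with a median of 0.51 against 0.06. DMSO libraries enter this contrast too. With the members taken by their palbociclib levels instead, 83 were higher and 5 lower, but PD30 libraries enter the contrast as well. Without N+PD30 replicate 3 the lower effects numbered 7. The largest, ZFP37 apart, were ZNF71 (2.24 ± 0.28), ZNF367 (2.20 ± 0.45), ZNF697 (2.03 ± 0.28) and ZNF584 (1.99 ± 0.22). ZNF367 was at means of 0.77 CPM in PD30 and 0.34 CPM in N+PD30, its lowest group, with as few as 4 counts in a library. ZFP37 had an estimate of 3.21 ± 0.39, given as a description, since it passes the filter through DMSO, was not tested in N+PD30 against Nutlin and was at 1.24, 1.14 and 1.11 CPM in PD30. ZNF71 was at 2.10, 3.16 and 2.84 CPM in Nutlin, 6.06, 9.20 and 7.84 CPM in PD30 and 9.84, 9.27 and 9.88 CPM in N+PD30. ZNF23, ZNF323 and ZNF407 had lower effects, of -0.94, -0.80 and -0.79. ZNF407 rose with Nutlin alone, from 31.5, 30.3 and 29.8 CPM to 49.5, 55.6 and 52.4 CPM, whereas it was at 29.4, 26.5 and 30.8 CPM in PD30 and at 28.2, 27.6 and 29.5 CPM in N+PD30.

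For the 24 h schedule, 6 of 201 members had a lower Nutlin effect and 1 a higher one (limma), beside 0.65% of all genes lower and 0.791% higher, with a median of -0.11 against 0.01. Without single libraries 0 to 6 members were lower. The 5 lowest were ZNF526 (-1.08 ± 0.24), ZNF331 (-0.98 ± 0.17), ZNF830 (-0.97 ± 0.18), ZNF791 (-0.93 ± 0.19) and ZNF200 (-0.82 ± 0.18), and the higher one was ZNF367 (3.01 ± 0.36). ZNF367 was already low with palbociclib alone, at means of 1.56 CPM in PD24 and 1.21 CPM in N+PD24. ZNF830 was at 12.3, 11.8 and 12.2 CPM in Nutlin against 19.4, 20.5 and 20.7 CPM in DMSO, and at 5.74, 4.58 and 5.85 CPM in N+PD24 against 17.9, 17.2 and 20.7 CPM in PD24.

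Members with described roles did not all pass the test. ZNF207 was lower in Nutlin than in DMSO (190, 170 and 198 CPM against 252, 253 and 280 CPM) and lower in N+PD24 (-0.38 ± 0.11, adjusted p = 0.0224), and its estimate in N+PD30 was -0.20 ± 0.11 (adjusted p = 0.237). ZNF445, a KRAB protein that guards imprinted regions, fell in N+PD24 by 1.27 on the log2 scale, from 37.8, 38.2 and 49.9 CPM to 13.8, 15.2 and 17.2 CPM. ZNF622 fell in N+PD24 by 0.80, from 76.8, 87.0 and 76.8 CPM to 38.6, 39.6 and 46.8 CPM, while it was at 77.0, 72.5 and 75.8 CPM in N+PD30 and at 60.5, 73.7 and 71.4 CPM in PD30, ranges that overlap.

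The promoter-binding factor ZNF143 instead rose in N+PD24 (0.45 ± 0.14, adjusted p = 0.0253), from 17.4, 15.1 and 17.9 CPM to 20.8, 21.3 and 20.5 CPM. For ZNF281, a regulator of stem cell and stress genes, the estimates were -0.09, -0.18 and -0.31 in Nutlin, N+PD24 and N+PD30, and none passed. ZNF598, the ubiquitin ligase that marks collided ribosomes, varied between replicates, with 9.88, 22.5 and 26.2 CPM in N+PD24, and passed in none of the 3. ZNF148, ZNF24 and ZNF410 were lower in N+PD24, by 0.72, 0.77 and 0.83, and ZNF217, an oncogene of the CoREST complex, had an estimate of -0.40 ± 0.15 (adjusted p = 0.0545). ZNF91, ZNF274, ZNF385A, ZNF703 and ZNF93 lay below the limit.

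The fall was spread over kinds of members. In N+PD24 against PD24, 66 of 83 members with KRAB letters were lower (median -0.91) and 77 of 115 without (median -0.71), and on chromosome 19 it was 52 of 62 (median -0.94) against 91 of 138 elsewhere (median -0.71). These differences between kinds were not tested, and members share clusters and sequence. In Nutlin against DMSO the same shares were 74.7% and 71.3% for KRAB letters and 71.0% and 73.9% for chromosome 19. The last 50 members by DMSO rank had medians of -0.95 in Nutlin and -1.15 in N+PD24, and the first 50 had -0.61 and -0.57. Without opposite-strand overlap, 99 of 137 were lower in Nutlin and 100 in N+PD24, and among members with at most 20% shared stretches 138 of 188 were lower in each. The 12 members over 20% had 8 lower in Nutlin and 5 in N+PD24. Their medians were -0.40 and -0.37, beside -0.71 and -0.84 for those 188. Across members the change in N+PD24 had Spearman's rho of 0.33 with DMSO level, 0.29 with gene span and -0.26 with the number of fingers, values that describe related genes of the same libraries.

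**Figure D5:**
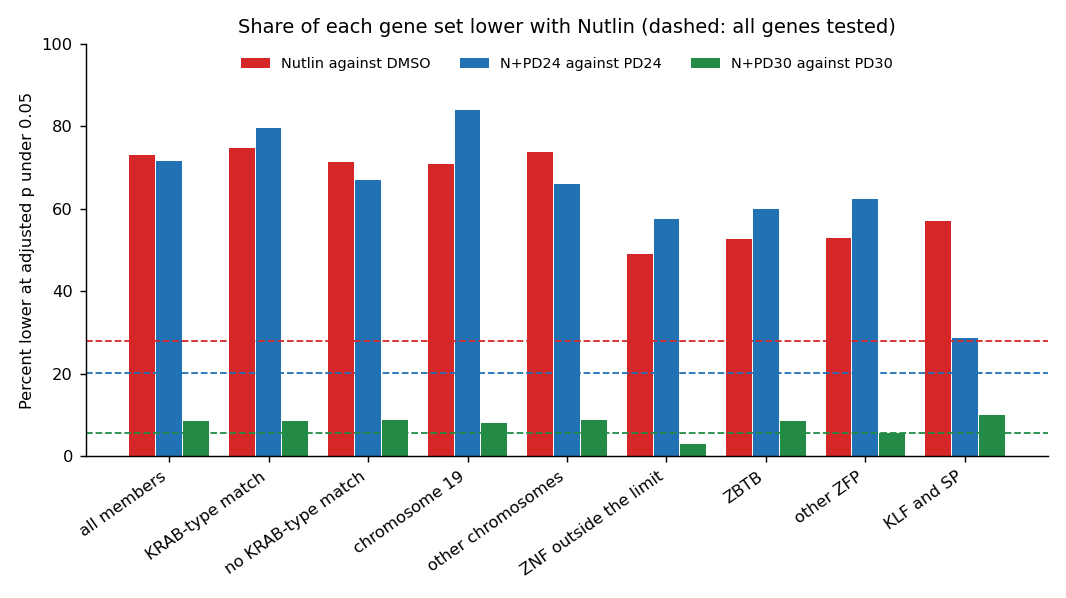
Bars give the percent of each gene set that was lower at an adjusted p under 0.05 in Nutlin against DMSO (red), N+PD24 against PD24 (blue) and N+PD30 against PD30 (green); dashed lines give the percent of all genes tested (28.0, 20.1 and 5.64). ZNF symbols below the limit and other zinc-finger families also stand above the red and blue lines.

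Zinc-finger genes outside the selection also had negative medians in both comparisons, and their differences from the members were not tested. Of the ZNF symbols below the limit, 153 of 266 tested were lower in N+PD24 and 18 higher (median -0.69), and 134 of 273 were lower in Nutlin and 38 higher (median -0.52). Among ZBTB genes, which pair fingers with a BTB domain, 21 of 35 were lower in N+PD24 (median -0.49), among other ZFP genes 10 of 16 (median -0.87), among ZSCAN genes 7 of 9 and among ZKSCAN genes 3 of 5. KLF and SP genes, 3-finger activators and repressors of GC-rich promoters, were lower in 6 of 21. In N+PD30 against PD30 the counts were 8 of 261 for the other ZNF symbols, 3 of 35 for ZBTB, 1 of 18 for ZFP, 2 of 20 for KLF and SP, and 0 for ZSCAN and ZKSCAN.

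The KRAB co-repressor machinery was listed with 20 genes, of which 19 were measured. TRIM28 itself was at a mean of 549 CPM in DMSO and 527 CPM in Nutlin (log2 fold change 0.07, adjusted p = 0.644), and it was lower in PD30 than in DMSO by 0.95. Of the 19, 12 were lower and none higher in Nutlin against DMSO, 8 and 0 in N+PD24 against PD24, and 2 and 0 in N+PD30 against PD30, beside 28.0%, 20.1% and 5.64% of all genes lower. Those that fell with Nutlin included DAXX (-1.39), a chaperone of histone H3.3, CHD4 (-1.02), the NuRD remodeller, ATF7IP (-0.70), a SETDB1 partner, MORC2 (-0.65), a HUSH effector, and SETDB1 (-0.36). CHD4 and CBX3, an HP1 protein, were the pair lower in N+PD30, by 0.71 and 0.65. ZNF410, whose best described target is CHD4, was at 43.5, 45.9 and 47.1 CPM in DMSO, 24.4, 19.6 and 23.0 CPM in Nutlin, 28.999, 29.6 and 28.2 CPM in PD30 and 22.5, 25.2 and 28.6 CPM in N+PD30, with 34.1% of its 50-base stretches shared. In N+PD30 against PD30, where CHD4 was lower, the ZNF410 estimate was -0.09 (edgeR, adjusted p = 0.581). A link between the changes of these genes was not tested.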

How the data were processed

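The authors mapped single-end reads to hg19 with TopHat and Bowtie2, counted them per gene symbol with HTSeq 0.6.0 and deposited count tables for DMSO, Nutlin, PD24, PD30 and N+PD30. The N+PD24 columns were deposited as a signal, counts divided by a size factor per library. Multiplied back, 100% of their values came out whole within 0.01. Every column of the tables used could be assigned, so 0 were left out, and the authors' own comparison of Nutlin with DMSO and size-factor tables were not used. The names of 28 rows had been turned into dates.

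Counts were tested with edgeR 4.0.16 (TMM, filterByExpr, quasi-likelihood, R 4.3.3), and comparisons with N+PD24 with limma 3.58.1 on log2(CPM + 0.5), with edgeR on the recovered reads and, elsewhere, DESeq2 1.42.0 as alternatives. All fits ran over all genes and were adjusted by Benjamini-Hochberg. Simulated data were used to test only the main fits of Nutlin against DMSO, N+PD24 against PD24 and the 30 h interaction. Each fit held only the groups compared, 2 for a pair and 4 for an interaction. CPM refer to the sum of all counts in a library. Positions, coding sequences and overlaps come from GENCODE on GRCh37, the build of the counts.

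The members, lists and tests were chosen with earlier results of these data known. Genes were named by rule: the 10 highest in DMSO, ZFP37, 3 on each side of the limit, ZNF genes with described roles, the largest changes among members past an adjusted p of 0.05 (8 falls and 6 rises in Nutlin, 4 and 4 in the other pairs, 5 and 5 in interactions), and the 5 largest among those passing in all 3 Nutlin comparisons. ZNF862, ZNF251 and ZNF410 were singled out for their pattern after their values were seen, as were ZNF142, ZNF845, ZNF22 and ZNF184. Replicate numbers were taken as pairing when same-numbered libraries of 2 groups had deviations correlating above 0.1 in all 3 pairs. This held for 8 of 15 pairs of groups, among them PD30 with N+PD30 and PD24 with N+PD24 and not DMSO with Nutlin. The rule left out differently numbered libraries, whose correlations reached 0.49, so it does not establish that the numbers pair the libraries.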

Additional observations from a re-analysis of the deposited data

Results flagged for a closer look

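The Nutlin effect differed between cells with and without palbociclib for the members named here, by the test of the interaction itself at an adjusted p under 0.05. In the 30 h schedule the effect was higher by 3.21 (log2, SE 0.39) for ZFP37, 2.24 for ZNF71, 2.20 for ZNF367, 2.03 for ZNF697 and 1.99 for ZNF584. It differed by -0.94 for ZNF23, -0.80 for ZNF323 and -0.79 for ZNF407. In the 24 h schedule the difference was 3.01 for ZNF367, -1.08 for ZNF526, -0.98 for ZNF331, -0.97 for ZNF830, -0.93 for ZNF791 and -0.82 for ZNF200. ZNF367 was at 2.51 CPM or less in every palbociclib library, and ZFP37 at 2.51 CPM or less. The ZFP37 estimate in the 30 h schedule was 3.21 (SE 0.39). ZFP37 passes the filter on low counts through DMSO and was not tested in N+PD30 against Nutlin, so its value is a description. With 3 libraries per group, single libraries could not be tested as outliers.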

How the results depend on the processing

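All values here are percentages of members unless named as medians (log2). Nutlin against DMSO kept its direction under every alternative: 73.1% were lower, 29.4% beyond 2-fold, and 4.98% higher, against 9.45% with upper-quartile scaling, 10.1% over all ZNF symbols and 0.995% beyond 2-fold. The value of Nutlin against DMSO, median log2 fold change, was -0.683 and became -0.809 with library totals, -0.577 with upper-quartile scaling, -0.613 for the 200 by palbociclib level and -0.556 for the first 100. For N+PD24 against PD24, 36.8% were lower beyond 2-fold, and higher members were 4.98% with the replicate block, 5.14% over all ZNF symbols and 0.995% beyond 2-fold. The value of N+PD24 against PD24, median log2 fold change, became -0.961 with library totals and -0.636 for the first 100.

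N+PD30 against PD30 varied most. Lower members (8.46%) became 15.4% with DESeq2, 14.9% with library totals, 29.4% with the replicate block, 5.41% over all ZNF symbols, 1.49% beyond 2-fold and 0.995% to 22.9% without single libraries. Higher members became 8.96% with the block, 0.498% beyond 2-fold and 0.995% to 6.97% without single libraries. In N+PD30 against Nutlin, lower members were 5.0% by palbociclib level and 5.0% beyond 2-fold, and higher ones 17.0% beyond 2-fold. In N+PD24 against Nutlin, 6.0% were lower beyond 2-fold, and higher members were 4.0% with library totals, 3.98% with no filter, 1.0% beyond 2-fold and 3.0% to 5.5% without single libraries.

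In PD30 against DMSO, 5.97% were lower beyond 2-fold, and higher members were 17.4% with upper-quartile scaling, 0.995% beyond 2-fold and 6.47% to 12.9% without single libraries. In PD24 against DMSO, 3.98% were lower and 0.0% higher beyond 2-fold, and higher members were 15.9% by palbociclib level and 3.98% to 9.95% without single libraries. The value of PD24 against DMSO, median log2 fold change, turned from -0.024 to 0.0284 with upper-quartile scaling, 0.0515 by palbociclib level and 0.0167 over all ZNF symbols, and ranged from -0.11 to 0.00236 without single libraries. The set by palbociclib level was chosen on PD24 and PD30 libraries, which stand in this comparison and in the interactions, so its values there are descriptions. For the 30 h interaction, lower effects were 4.48% with upper-quartile scaling, 2.99% with the block, 2.49% by palbociclib level, 3.14% over all ZNF symbols, 0.0% beyond 2-fold and 1.49% to 3.48% without single libraries, and higher ones 23.9% beyond 2-fold. For the 24 h interaction, lower effects were 5.97% with the block, 0.498% beyond 2-fold and 0.0% to 2.99% without single libraries, and higher ones 0.0% by palbociclib level, 1.0% for the first 100, 0.207% over all ZNF symbols and 0.498% to 0.995% without single libraries. The cause of these shifts was not tested.

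Of 76 results for single named genes, 64 kept their call under every alternative run and 12 lost it under at least 1, with 0 reversals. The replicate block left 146 members lower and 11 higher in Nutlin against DMSO, where the numbers do not pair the libraries. Genes near the filter, such as ZFP37 in Nutlin-treated libraries, rest on few counts.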
